A study of Mus musculus with 8 samples.

Results

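Mature oocytes, held in the second metaphase of meiosis (MII), were compared between mice that lose BAF250a in the oocyte and control mice. BAF250a is the protein of Arid1a. The comparison covered every gene entry of the deposited count table, 54838 in all, and 15572 of them had enough reads to be tested. It rests on 4 of the 8 libraries of the series, 2 of knockout and 2 of control MII oocytes. The other 4 libraries, of oocytes at the germinal vesicle (GV) stage before meiosis resumes, shared the estimate of spread and served for a comparison between stages.

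Both groups were of the C57BL/6 strain. Knockout oocytes (BAF250aGKO) lost Arid1a through Gdf9-cre, a recombinase driven by the Gdf9 promoter, which is active in growing oocytes and leaves other cells of the ovary with their gene. Control oocytes were labelled wildtype, with no statement on whether they carried an unrecombined floxed allele. The sources used here do not give age, hormone treatment, the way MII oocytes were obtained or the deleted exon. Each library was made from 5 to 10 pooled oocytes of total RNA. Nothing in the labels says that libraries of a group came from separate animals, so each p-value measures the spread between these libraries, which may be technical. Reads in genes numbered 26005880 and 29740748 in the control MII libraries, called a and b here because the table gives both the same name, and 33289150 and 28846136 in knockout MII libraries 1 and 2. At that depth a floor of 3 reads corresponds to 0.0894 to 0.115 CPM, the reads of a gene scaled to a common library total.

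BAF is a chromatin remodelling complex of the SWI/SNF family. An ATPase subunit moves or evicts nucleosomes, and ARID1A or ARID1B, one per complex, gives the complex its contacts with DNA. Oocytes transcribe while they grow, fall silent before meiosis resumes, and mature with the mRNA they have stored. Transcript levels at MII are therefore set by earlier transcription and by the selective translation, deadenylation and decay of stored mRNA, and a library prepared by poly(A) selection reads the length of the tail as well. The labels do not say how transcripts were selected.

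The targeted gene was low in both knockout libraries. Arid1a (ENSMUSG00000007880, mm10 chromosome 4, 133679008 to 133756769, minus strand) held 1617 CPM in control MII library a, 1293 CPM in library b, and 33.0 and 21.7 CPM in the knockout libraries. The groups were far apart, at 1.88% of the control mean (log2 fold change -5.73 ± 0.50 SE, adjusted p = 0.000463, edgeR quasi-likelihood, n = 2 a side). Of 28 tested subunits of BAF and its relatives PBAF and ncBAF, Arid1a was the only one to pass with edgeR. Arid1b, which takes the place of ARID1A in some complexes, held 65.6 and 60.6 CPM in control and 34.6 and 29.8 CPM in knockout libraries and missed the threshold (adjusted p = 0.0554). DESeq2, run as an alternative, called 4 of the 28 lower.

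The libraries carried oocyte transcripts at similar levels. Summed over 15 defining oocyte markers, such as the growth factor gene Gdf9, the zona pellucida genes Zp1, Zp2 and Zp3 and the linker histone gene H1foo, the level was 37476 and 35384 CPM in control and 36238 and 33488 CPM in knockout MII libraries (CPM of all gene reads, unscaled). No oocyte marker passed with edgeR or DESeq2, and 2 were higher at an unadjusted p below the threshold of 0.05.

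In knockout MII oocytes 265 genes were higher and 535 lower, which is 1.7% and 3.44% of the genes tested and 5.14% together. A gene was called at a Benjamini-Hochberg adjusted p below 0.05. The median log2 fold change of all genes was -0.01 and that of the calls 3.59 in absolute size. No called gene had overlapping groups, but passing the test with 2 libraries a side nearly requires this, so it adds no separate support. Genes called higher together made up 0.488% and 0.511% of the CPM of tested genes in control and 1.73% and 1.76% in knockout libraries. Genes called lower made up 2.22% and 2.27% in control and 0.432% and 0.429% in knockout libraries, so the calls touched a small share of the transcript pool. Of the lower calls, 121 had 0 reads in both knockout libraries, and of the higher calls 41 had 0 reads in both control libraries. The genes called higher had a median level of 1.11 CPM in control and 13.4 CPM in knockout oocytes, and those called lower 6.19 and 0.411 CPM. Among 3212 genes with at least 50 CPM in 1 group, 74 were higher and 73 lower. The calls depended on the small number of libraries: 71 higher and 157 lower genes were called whichever of the 8 libraries was left out. Of the 136 named genes that were called, 83 to 97 kept the call when 1 library was left out.

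**Figure D1:**
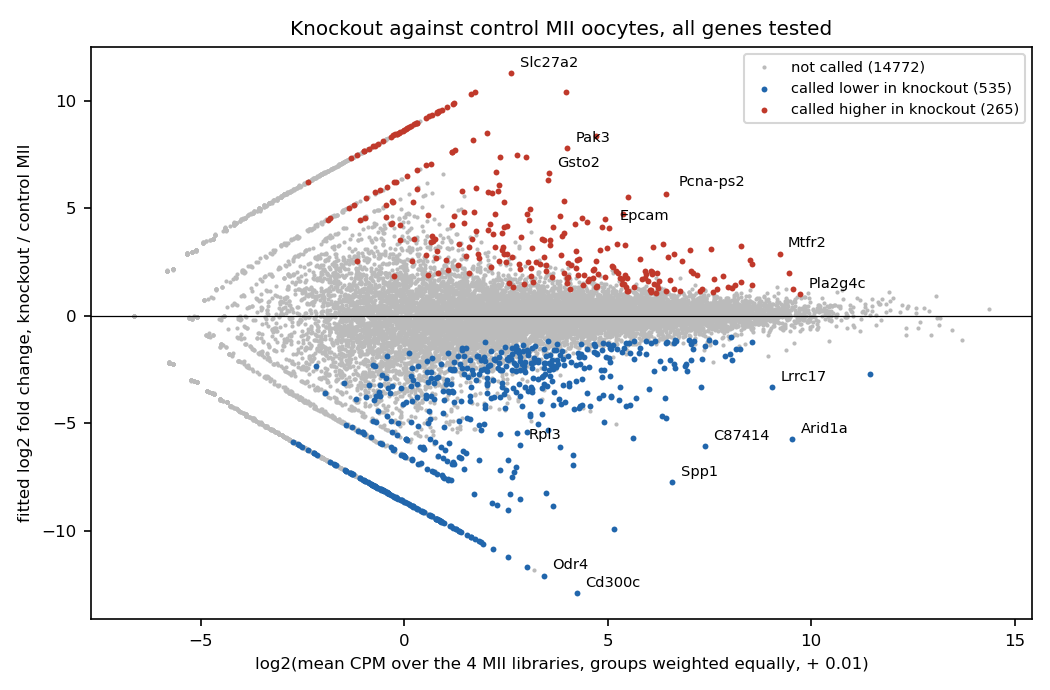
Each point is 1 of the 15572 tested genes, with the log2 of its mean CPM over the 4 MII libraries on the x axis and the fitted log2 fold change of knockout over control on the y axis. Arid1a, Lrrc17, C87414 and Mtfr2 stand out at high levels, while the straight edges at the left are genes with 0 reads in 1 group, whose fitted fold has no fixed size.

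The 12 most abundant protein-coding genes called higher were Pla2g4c, Prdx2, Dph6, Mtfr2, C87977, Gli3, Cdc34b, Cdc37l1, Gstm5, Foxn3, Wdr33 and Selenow. Mtfr2, a regulator of mitochondrial fission, held 159 and 124 CPM in control and 1044 and 1060 CPM in knockout libraries. Its knockout libraries nearly coincided, at 743% of the control mean (log2 fold change 2.89 ± 0.29, adjusted p = 0.000878). Cdc34b, a ubiquitin-conjugating enzyme, held 66.5 and 50.9 CPM against 477 and 634 CPM (3.24 ± 0.33, adjusted p = 0.000925). Gli3, a transcription factor of Hedgehog signalling, held 114 and 91.6 CPM against 535 and 692 CPM (2.58 ± 0.39, adjusted p = 0.00694). C87977, of the PRAME-like multicopy family, held 111 and 124 CPM against 564 and 707 CPM (2.43 ± 0.31, adjusted p = 0.00305). These 4 were called whichever library was left out.

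Prdx2, a peroxiredoxin that removes hydrogen peroxide, held 280 and 292 CPM in control and 873 and 1363 CPM in knockout libraries (1.97 ± 0.42, adjusted p = 0.0279). Selenow, a small selenoprotein, held 102 and 96.4 CPM against 278 and 441 CPM (1.86 ± 0.32, adjusted p = 0.0113). Gstm5, a glutathione transferase, held 199 and 116 CPM against 597 and 336 CPM (1.57 ± 0.36, adjusted p = 0.0348). All 3 rose, and each lost its call without control MII library a. Prdx2 and Selenow also lost it without control MII library b, Prdx2 without knockout MII library 2, and Gstm5 kept it in 1 of the 8 fits that leave out a library. Pla2g4c, a phospholipase A2, had the highest mean level in the knockout of the protein-coding genes called higher, 516 and 600 CPM against 1166 and 1102 CPM, and the smallest change of the 12 (1.02 ± 0.25, adjusted p = 0.0456), a call lost without any 1 of the 8 libraries. Dph6, of diphthamide synthesis on elongation factor 2, held 420 and 484 CPM against 937 and 1180 CPM (1.23 ± 0.27, adjusted p = 0.0325). Cdc37l1, a partner of the chaperone Hsp90, the forkhead factor Foxn3 and Wdr33, which binds the polyadenylation signal, were at 272%, 271% and 242% of their control means, and kept their calls in 6, 3 and 3 of the 8 fits that leave out a library. Prdx2 overlaps Junb and Rnaseh2a, Cdc37l1 overlaps Ak3, and Gsto2, below, overlaps Cfap43, each on the other strand. The sources used here do not say whether counting used strand, so reads of such partners cannot be told apart.

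Several genes near absence in control MII oocytes were present in the knockout. Slc27a2, a fatty acid transporter, had 0 reads in both control libraries and 16.6 and 8.08 CPM in knockout libraries, at least 115-fold higher against a floor of 3 reads per library (adjusted p = 0.00524). The zinc finger gene Zfp990 had 0 reads in control and 7.83 and 5.44 CPM in knockout libraries, at least 61.9-fold higher (adjusted p = 0.00683). Gsto2, a glutathione transferase of the omega class, rose from 0.192 and 0.264 CPM to 28.6 and 17.9 CPM (6.63 ± 0.56, adjusted p = 0.000343). Pak3, a kinase that acts on the actin cytoskeleton, was at 0 and 0.264 CPM in control and 28.6 and 35.5 CPM in knockout libraries (adjusted p = 0.0201). Its call was lost without control MII library a (adjusted p = 0.0596) and without either control GV library. Bfsp1, a lens filament protein, was at 0.192 and 0 CPM in control and 12.7 and 18.6 CPM in knockout libraries, and Rassf4, a Ras-association protein, at 0 and 0.165 CPM and 9.68 and 9.32 CPM. Gm13212, Gm13088, Pik3c2g, Sord, T2 and Hormad1 completed the 12 with the largest changes, all at or below 0.330 CPM in each control library and between 5.36 and 17.97 CPM in each knockout library. Sord is sorbitol dehydrogenase, Pik3c2g a phosphoinositide kinase and Hormad1 a protein of the meiotic chromosome axis. The calls of Pik3c2g and Sord were kept in 1 and 3 of the 8 fits that leave out a library.

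**Figure D2:**
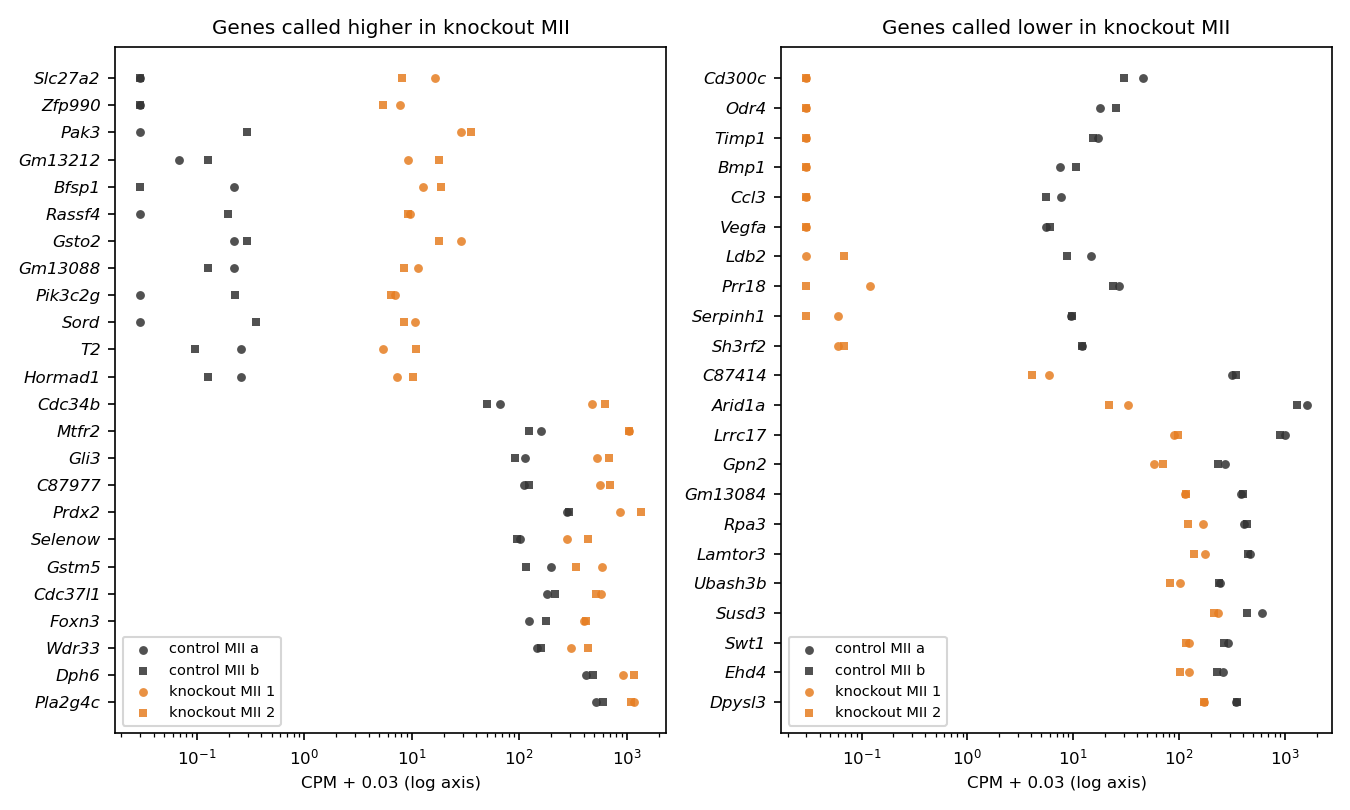
CPM of each MII library, plus 0.03 and on a log axis, for the most abundant and the most changed protein-coding genes called higher (left) and called lower (right) in the knockout. In each gene the 2 control libraries (black) lie apart from the 2 knockout libraries (orange), as in every called gene. Points at the left edge of the right panel are libraries with 0 reads.

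Epcam and Pxdn were among the clearest rises of genes that encode surface and matrix proteins. Epcam, a homotypic adhesion molecule of epithelia, held 1.08 and 2.81 CPM in control and 77.5 and 100 CPM in knockout MII libraries (5.50 ± 0.52, adjusted p = 0.000714). Pxdn, the peroxidasin that forms cross-links in collagen IV, held 3.35 and 2.68 CPM against 94.6 and 64.3 CPM (4.72 ± 0.44, adjusted p = 0.000659). Both kept the call in all 8 fits that leave out a library. The other 4 tested epithelial markers were not called: Cdh1, also an oocyte gene, stood at 340 and 304 CPM in control and 408 and 438 CPM in knockout libraries, and Krt8 at 3.23 and 0.429 CPM against 0.298 and 0 CPM. The promoters of 4 genes that rose are shown because they belong to the rises that held in every fit. Sequences are from RefSeq (GRCm38.p6), run from 150 bases before to 20 bases after the annotated start, and have in capitals each match to a searched motif.
Gsto2 (chr19:47865395-47865564, plus strand): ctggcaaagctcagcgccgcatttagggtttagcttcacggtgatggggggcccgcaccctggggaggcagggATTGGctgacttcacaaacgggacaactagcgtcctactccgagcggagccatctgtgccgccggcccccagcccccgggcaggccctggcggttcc
Pxdn (chr12:29937886-29938055, plus strand): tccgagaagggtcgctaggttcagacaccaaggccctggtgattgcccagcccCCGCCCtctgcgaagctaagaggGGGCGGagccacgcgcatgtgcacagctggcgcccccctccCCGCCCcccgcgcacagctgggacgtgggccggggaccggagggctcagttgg
Epcam (chr17:87635829-87635998, plus strand): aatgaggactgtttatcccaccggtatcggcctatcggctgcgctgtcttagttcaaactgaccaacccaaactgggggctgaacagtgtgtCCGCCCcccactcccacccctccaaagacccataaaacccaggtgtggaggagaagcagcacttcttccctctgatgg
Mtfr2 (chr10:20347669-20347838, plus strand): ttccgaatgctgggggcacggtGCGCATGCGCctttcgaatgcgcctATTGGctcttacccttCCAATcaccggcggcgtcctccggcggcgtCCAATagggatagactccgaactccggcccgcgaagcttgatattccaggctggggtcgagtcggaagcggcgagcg
The capitals mark the CCAAT box (CCAAT), the GC box (GGGCGG) and the NRF1 site, on either strand. The TATA box (TATAAA), the E-box (CACGTG), the ETS site (CCGGAAG) and the AP-1 site (TGANTCA) were also searched, and no motif contains another. In windows from 250 bases before to 50 bases after the start, an NRF1 site was found in 2.47% of the 162 matched protein-coding genes called higher, in 2.04% of the 10202 matched tested protein-coding genes and in 0.977% of all 27025 listed promoters. A GC box was found in 63.0% of the higher calls and in 62.3% of tested genes, and a CCAAT box in 37.7% and 39.0%. A match is a description of the sequence, not a bound site.

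The abundant transcripts that were lower were led by Arid1a and Lrrc17. Lrrc17, a secreted leucine-rich repeat protein, held 1009 and 903 CPM in control and 90.4 and 98.6 CPM in knockout libraries, 9.88% of the control mean (-3.34 ± 0.33, adjusted p = 0.000792). C87414, a PRAME-like gene on chromosome 5, held 315 and 348 CPM against 5.84 and 4.08 CPM, 1.49% of the control mean (-6.06 ± 0.33, adjusted p = 5.08e-05). Both were called whichever library was left out. PRAME-like genes are a multicopy family whose members may share reads. How similar they are was not measured here, so the value of C87414 is uncertain. Lrrc17 overlaps Fbxl13 on the other strand. The other 9 of the most abundant kept between 25.05% and 49.7% of their control means. They were Susd3, Lamtor3, of the Ragulator complex that anchors mTORC1 to lysosomes, Rpa3, of the single-strand DNA-binding protein RPA, the PRAME-like gene Gm13084, Dpysl3, Swt1, an RNA endonuclease, the GTPase Gpn2, Ehd4, of endocytic recycling, and the phosphatase Ubash3b. Lamtor3 held 464 and 444 CPM against 175 and 138 CPM (-1.53 ± 0.26, adjusted p = 0.0111), and Rpa3 415 and 439 CPM against 168 and 121 CPM (-1.56 ± 0.38, adjusted p = 0.0421). Gm13084 held 389 and 402 CPM against 114 and 117 CPM (-1.78 ± 0.29, adjusted p = 0.00941). Calls of this size were fragile: Dpysl3 lost its call without any 1 library, Ehd4 kept it in 1 of 8 fits, and Susd3 and Rpa3 in 2.

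Among the largest falls were genes of secreted and surface proteins of somatic cells. Cd300c, a receptor of myeloid cells, held 45.4 and 30.0 CPM in control and 0 reads in both knockout libraries, at least 372-fold lower (adjusted p = 0.00649). The metalloproteinase inhibitor Timp1 held 17.2 and 15.3 CPM, the procollagen proteinase Bmp1 7.54 and 10.5 CPM, the chemokine Ccl3 7.69 and 5.52 CPM and the angiogenic factor Vegfa 5.50 and 6.05 CPM in control, and all 4 had 0 reads in the knockout. They were at least 160-fold, 89.2-fold, 65.2-fold and 57.0-fold lower. Odr4, also at 0 reads in the knockout, held 17.8 and 25.3 CPM in control (at least 212-fold lower, adjusted p = 0.00181). Timp1 lost its call without either knockout MII library, Vegfa without knockout MII library 2 and Prr18 and Ccl3 in 5 of the 8 fits that leave out a library. Timp1 overlaps Syn1 and Odr4 overlaps Tpr on the other strand. Single reads remained of Ldb2, a cofactor of LIM-domain transcription factors, Serpinh1, a chaperone of collagen, and Sh3rf2, which held between 8.72 and 14.6 CPM in each control library. Prr18, at 26.8 and 23.6 CPM in control, had 3 and 0 reads in the knockout. Spp1, a secreted phosphoprotein of bone and macrophages that was chosen after its values were seen, held 154 and 228 CPM in control and 1.64 and 0.0755 CPM in knockout libraries (adjusted p = 0.00533). The 25 listed blood and immune markers gave a summed 65.3 and 100 CPM in control and 7.60 and 9.81 CPM in knockout libraries. Of that sum 4 genes, Cd300c, Ccl3, Cd52 and Cd74, gave 57.2 and 83.2 CPM in control and 0 in the knockout. They were set apart after their values were seen, which favours overlap in the rest. The other 21 listed gave 8.08 and 17.2 CPM against 7.60 and 9.81 CPM, which overlap. Of the 12 tested immune markers, 8 had negative and 2 positive fold changes (median -2.45). With edgeR 6 were lower at an unadjusted p below 0.05. The part of immune cells in these falls was not tested. In pooled oocytes, fewer adhering cells of a type and less RNA per cell cannot be told apart.

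The promoters of Lrrc17, the most abundant fall beside Arid1a, and of Spp1 read as follows.
Lrrc17 (chr5:21543377-21543546, plus strand): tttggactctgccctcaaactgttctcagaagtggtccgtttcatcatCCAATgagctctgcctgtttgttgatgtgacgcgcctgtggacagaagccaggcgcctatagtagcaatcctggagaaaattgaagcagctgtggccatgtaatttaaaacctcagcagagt
Spp1 (chr5:104434961-104435130, plus strand): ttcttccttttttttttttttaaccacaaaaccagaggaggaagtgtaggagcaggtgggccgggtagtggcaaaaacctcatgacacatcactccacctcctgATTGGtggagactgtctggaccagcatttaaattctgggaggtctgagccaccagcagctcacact
Both hold a CCAAT box, in capitals, a motif found in 37.2% of 355 matched lower calls outside the ribosomal protein genes and in 39.0% of tested genes. The AP-1 site (TGANTCA) was found in 3.66% of these lower calls and in 4.86% of tested genes.

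Cytoplasmic ribosomal protein genes formed the list with most calls, all in the lower direction. The ribosome reads mRNA with a small 40S and a large 60S subunit, each built of many small proteins whose mRNAs are translated under control of their first bases. In the 40S list 16 of 33 tested genes fell (median log2 fold change of the list -1.99), and in the 60S list 19 of 47 (-1.37), against a median of -0.01 over all genes. Together that is 43.75% of 80 genes, against 5.14% of all genes called. Rpsa, of the 40S subunit, held 48.9 and 60.8 CPM in control and 6.17 and 2.34 CPM in knockout libraries (-3.68 ± 0.45, adjusted p = 0.00265). Rps27a, which encodes a fusion of ubiquitin with a 40S protein, held 19.3 and 17.9 CPM against 2.50 and 2.91 CPM (-2.78 ± 0.41, adjusted p = 0.00648). Rpl7, of the 60S subunit, held 31.4 and 26.6 CPM against 2.86 and 0.680 CPM (-4.01 ± 0.53, adjusted p = 0.00384). Rpl9, Rpl21 and Rpl10a, all of the 60S subunit, kept between 8.40% and 14.3% of their control means, and Rps19, of the 40S subunit, kept 5.65%.

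Knockout library 2 was the lower of the 2 in 29 of the 35 called ribosomal protein genes. Without it, 11 were called, 18 without control MII library b, 23 without control MII library a and 22 without knockout GV library 1, and 11 were called whichever library was left out. These are also low transcripts at MII: the group means of the 35 had a median of 20.1 CPM in control and 2.97 CPM in knockout oocytes, while at GV the medians were 271 and 232 CPM. The sum over all listed members was 3442 and 3774 CPM in the control and 2743 and 2052 CPM in the knockout libraries (unscaled). The called members were selected by their difference, so a larger fall in them than in this sum is built in. Those not called included Rps26, at 13.23 and 14.04 CPM in control and 3.99 and 1.28 CPM in knockout libraries (adjusted p = 0.0502). Of the tested immune markers 3 were called lower, and the part of immune cells in this result was not tested. At GV 1 of the 80 genes, Rps3a1, was called (median -0.11), and 2, Rpl3 and Rps4x, passed the test of a difference between stages.

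**Figure D3:**
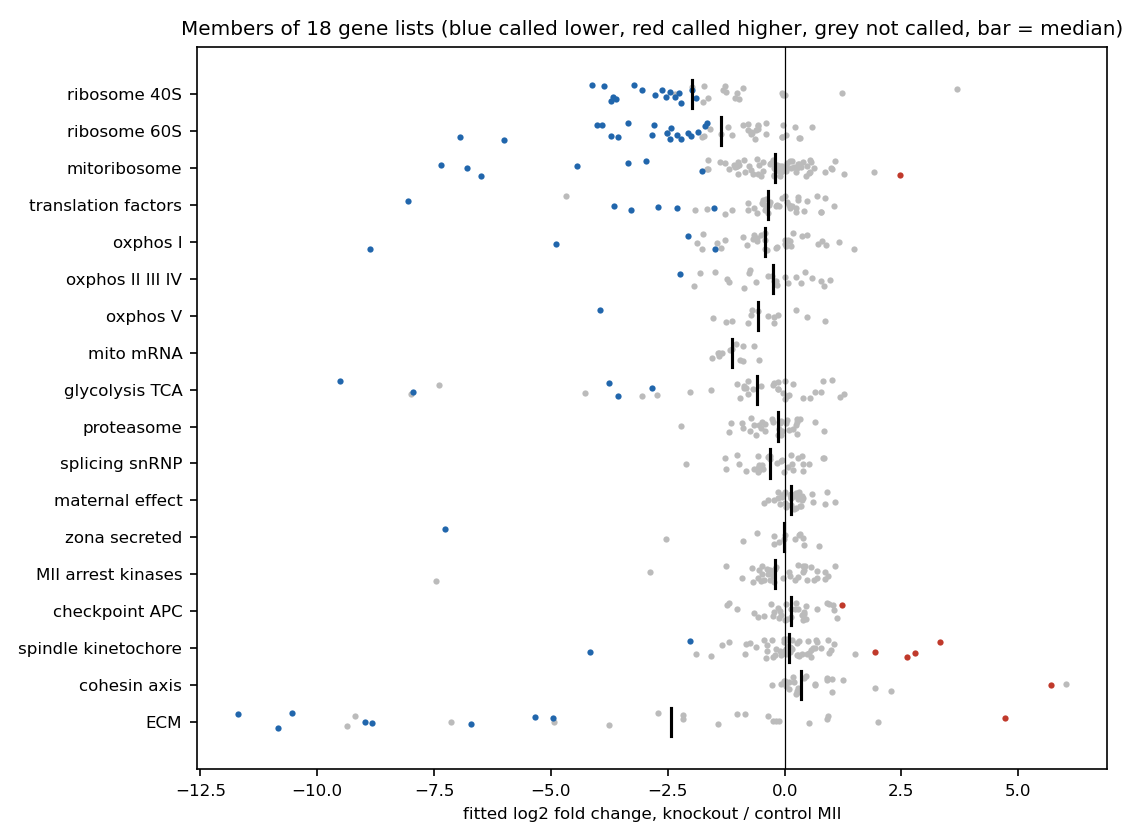
Fitted log2 fold changes of the tested members of 18 gene lists, 1 point per gene, with the list's median as a black bar. Both ribosomal protein lists and the extracellular matrix list have medians of -1.37 or lower and many blue points, genes called lower, while maternal-effect genes lie around 0.

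Promoters of 2 ribosomal protein genes are shown because both were called lower in every fit that leaves out a library.
Rps3a1 (chr3:86142649-86142818, minus strand): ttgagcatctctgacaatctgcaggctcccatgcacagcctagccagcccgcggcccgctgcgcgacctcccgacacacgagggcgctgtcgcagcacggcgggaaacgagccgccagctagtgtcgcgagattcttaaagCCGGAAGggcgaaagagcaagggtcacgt
Rpsa (chr9:120127616-120127785, plus strand): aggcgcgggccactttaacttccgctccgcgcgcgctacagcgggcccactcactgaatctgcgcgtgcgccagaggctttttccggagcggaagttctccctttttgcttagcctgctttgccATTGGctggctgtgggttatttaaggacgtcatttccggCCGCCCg
In the printed stretches Rps3a1 carries an ETS site (CCGGAAG), and Rpsa a CCAAT box and a GC box, in capitals. Outside them, but inside the longer window used for the shares, Rpsa also holds an ETS site and Rps3a1 a GC box. The ETS site was found in the window from 250 bases before to 50 after the start in 37.5% of 24 matched ribosomal protein genes called lower, in 41.7% of 36 not called, in 17.5% of tested protein-coding genes and in 9.12% of all listed promoters. Called and uncalled members thus held the site in similar shares.

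Other genes of protein synthesis and mitochondria had fewer calls. Among 45 translation factors 6 fell and none rose, 13.3% against 5.14% of all genes. Without any 1 of control GV library 1, knockout GV library 1 and knockout MII library 2, 3 fell. Eef2, which moves the ribosome along mRNA, held 26.9 and 34.7 CPM in control and 6.05 and 6.38 CPM in knockout libraries (-2.31 ± 0.28, adjusted p = 0.00256), Eef1g, of elongation factor 1, 12.3 and 7.83 CPM against 0.626 and 0.982 CPM (-3.65 ± 0.43, adjusted p = 0.00211), and Eif3l, of initiation factor 3, 4.12 and 5.52 CPM against 0.566 and 0.906 CPM (-2.72 ± 0.37, adjusted p = 0.0043). Eif4ebp1, a repressor of cap-dependent initiation, fell to 10.1% of control. Eif4e1b, the oocyte form of the cap-binding protein, was far more abundant, at 380 and 378 CPM in control and 694 and 891 CPM in knockout libraries (1.06 ± 0.29, adjusted p = 0.0658). Of 46 genes of the nucleolus and of ribosome assembly, Nop2, Polr1d, Nop53 and Rrp9 fell and Nop14 rose, 10.9% of the list. Nop2, a methyltransferase of ribosomal RNA, held 2.38 and 1.75 CPM in control and 0 reads in the knockout, at least 20.4-fold lower (adjusted p = 0.00426). Polr1d, shared by RNA polymerases I and III, held 37.8 and 36.7 CPM against 15.8 and 12.6 CPM (-1.39 ± 0.27, adjusted p = 0.0179).

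Of 76 mitochondrial ribosomal protein genes 7 fell and 1 rose, 10.5% against 5.14% of all genes. Mrpl1 rose from 1.08 and 2.31 CPM to 9.83 and 9.17 CPM (2.48 ± 0.50, adjusted p = 0.0226). Subunits of the respiratory chain fell in 4 of 37 tested genes of complex I, 1 of 24 of complexes II, III and IV, and 1 of 15 of the ATP synthase, together 7.89% against 5.14% of all genes. Those that fell were low: Ndufs7 held 3.08 and 4.82 CPM in control and 1.43 and 1.36 CPM in knockout libraries (-1.50 ± 0.34, adjusted p = 0.0334), and Cox7c 3.96 and 4.53 CPM against 0.983 and 0.793 CPM (-2.25 ± 0.38, adjusted p = 0.0113). No mRNA of the mitochondrial genome passed with edgeR, while 2 of 13 had an unadjusted p below 0.05 and DESeq2 called 1 lower. All 13 had negative fold changes and summed to 55371 and 63895 CPM in control and 24908 and 36947 CPM in knockout libraries (unscaled). The most abundant in control, mt-Cytb, of complex III, held 17844 and 18580 CPM in control and 6717 and 9979 CPM in knockout libraries (-1.13, adjusted p = 0.351), and mt-Co3, of cytochrome oxidase, held 48.8 and 54.6 CPM in control and 16.0 and 23.3 CPM in knockout libraries (-1.40 ± 0.44, adjusted p = 0.0975). Of 34 genes of protein translocation into the endoplasmic reticulum 2 fell, Ssr4 and Srprb, 5.88% of the list. The 33 proteasome genes and 33 genes of spliceosomal particles held no edgeR call, with 3 of each list at an unadjusted p below 0.05 and 0 and 1 DESeq2 calls.

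Processed pseudogenes, intronless copies of mRNAs in the genome, were called in 4.09% of 636 tested, against 5.14% of all genes. Higher calls made up 3.62% and lower calls 0.472%, against 1.7% and 3.44% of all genes. Their calls thus went mostly in the other direction, with 23 higher and 3 lower. In 7 of these the copy matched its parent's coding sequence at 98.9% to 99.8% of aligned bases, a set chosen after the values were seen. Rps3a3 held 0.346 and 0.330 CPM in control and 9.26 and 8.72 CPM in knockout libraries (4.71, adjusted p = 0.000792), while its parent Rps3a1 held 34.0 and 49.7 CPM against 3.63 and 3.17 CPM (-3.62 ± 0.38, adjusted p = 0.00117). Rps3a2, a second copy, held 0.0769 and 0.264 CPM against 5.21 and 3.70 CPM, and Rpl34-ps1 1.42 and 1.26 CPM against 30.3 and 17.3 CPM, with its parent Rpl34 at 69.8 and 55.6 CPM and 7.0 and 2.42 CPM. Pcna-ps2, a copy of the sliding clamp gene of DNA replication, held 2.73 and 3.93 CPM against 139 and 199 CPM (5.66, adjusted p = 0.000294). Its parent Pcna held 200 and 225 CPM in control and 178 and 237 CPM in knockout libraries and did not pass (-0.04, adjusted p = 0.999). In Rps3a1 and Rpl34 the copies thus rose and the parents fell, while Pcna, Nudc, Morf4l1 and Rps2 did not pass in the parent. Of these uncalled parents, Rps2 (-1.07), Nudc (-1.45) and Morf4l1 (-0.52) had negative log2 fold changes, and Pcna was close to unchanged.

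The sequences below show how little separates parent and copy. Each line gives 90 bases, coding bases 579 to 668 of Rps3a1 or 88 to 177 of Pcna, with capitals where the copy has another base than its parent.
Rps3a1: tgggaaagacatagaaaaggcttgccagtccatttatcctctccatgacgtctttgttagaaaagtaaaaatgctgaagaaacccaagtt
Rps3a2: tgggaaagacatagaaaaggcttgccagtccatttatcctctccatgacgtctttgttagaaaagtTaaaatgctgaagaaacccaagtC
Rps3a3: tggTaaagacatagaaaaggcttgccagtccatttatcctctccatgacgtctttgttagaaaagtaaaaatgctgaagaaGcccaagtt
Pcna: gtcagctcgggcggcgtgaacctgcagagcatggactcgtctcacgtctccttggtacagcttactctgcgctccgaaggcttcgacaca
Pcna-ps2: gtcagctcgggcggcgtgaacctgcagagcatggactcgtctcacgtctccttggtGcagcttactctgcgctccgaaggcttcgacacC
Copy and parent differed at 2 bases in each stretch, and at 4 and 9 bases over the 792 and 795 aligned bases of Rps3a2 and Rps3a3. Rps3a2 lies on chromosome 14 (88123017 to 88123808), Rps3a3 on chromosome 13 (108670603 to 108671397) and Pcna-ps2 on chromosome 19 (9283380 to 9284160), all mm10. Reads without one of these bases match both places equally well, and Bowtie2, the aligner in the submitters' processing notes, does not split reads over introns. The sources used here do not say how reads with several matches were counted, so the level of each member of a pair is uncertain. Over all 97 tested pseudogenes of ribosomal protein genes with names ending in -ps and a number, 2 rose and 1 fell (median -1.13).

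**Figure D4:**
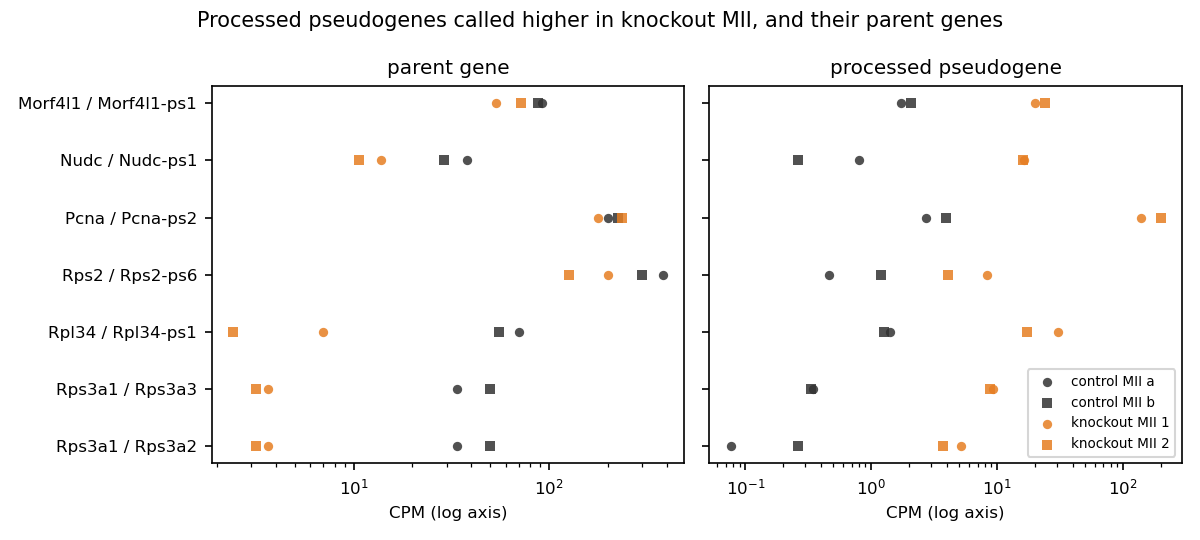
CPM of each MII library, on log axes, for 7 processed pseudogenes called higher (right) and the genes they were copied from (left). Knockout libraries (orange) lie to the right of control libraries (black) for every copy. For the parents Rps3a1, Rpl34, Rps2, Nudc and Morf4l1 they lie to the left, and Pcna has overlapping groups.

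Of 60 genes of the spindle, centrosome and kinetochore, Nusap1, Tubg1, Spc25 and Cenpp rose and Haus8 and Tacc3 fell, 10% of the list against 5.14% of all genes. Without control MII library a, 2 rose and 1 fell. Nusap1, which bundles microtubules near chromosomes, held 23.2 and 6.51 CPM in control and 154 and 144 CPM in knockout libraries (3.33 ± 0.51, adjusted p = 0.00756). Tubg1, the γ-tubulin that seeds microtubules, held 21.7 and 34.6 CPM against 87.1 and 127 CPM (1.92 ± 0.34, adjusted p = 0.0121), and was not called without control MII library a. Haus8, of the augmin complex that branches microtubules, held 19.7 and 28.3 CPM against 2.32 and 0.302 CPM (-4.16 ± 0.70, adjusted p = 0.0108). Spc25, of the outer kinetochore, held 11.6 and 19.4 CPM against 56.4 and 135 CPM, with knockout library 2 far above library 1, and lost its call without that library and without control MII library a. Tubb5, a β-tubulin, fell from 19.6 and 36.4 CPM to 6.05 and 6.42 CPM (-2.17 ± 0.33, adjusted p = 0.00756), the only one of 13 tubulins called. Tubb3, more abundant, held 1304 and 866 CPM in control and 370 and 538 CPM in knockout libraries (-1.26 ± 0.34, adjusted p = 0.0663).

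In the list of the spindle checkpoint and the anaphase-promoting complex, the ubiquitin ligase that ends metaphase, 1 of 34 genes was called. That is 2.94% of the list, against 5.14% of all genes. Anapc5, a subunit, held 89.9 and 101 CPM in control and 225 and 221 CPM in knockout libraries (1.22 ± 0.28, adjusted p = 0.0374). Pttg1, which encodes securin, the inhibitor of separase, was abundant at 2443 and 2424 CPM in control and 4142 and 6378 CPM in knockout libraries (1.11 ± 0.32, adjusted p = 0.077). Cdc20, the activator of the complex, held 243 and 232 CPM against 112 and 124 CPM (-1.01 ± 0.29, adjusted p = 0.0751). Neither passed. Among 41 kinases and regulators of MII arrest, with the MOS-MAPK pathway and cyclin B, edgeR called none, 7 had an unadjusted p below 0.05 and DESeq2 called 2 lower. Ccnb1, cyclin B1, held 2330 and 2670 CPM in control and 3134 and 4643 CPM in knockout libraries, and Mos, the kinase that starts the arrest pathway, 1271 and 1149 CPM against 988 and 749 CPM. Among 26 genes of cohesin and the chromosome axis Hormad1 was called (3.85%), and of 8 condensin genes none with either tool, nor at an unadjusted p below 0.05.

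The maternal-effect genes, whose stored products carry the early embryo, gave no call among 37 tested with edgeR or DESeq2, and 2 had an unadjusted p below 0.05. Their median log2 fold change was 0.14. Nlrp5, of the subcortical maternal complex, held 198 and 168 CPM in control and 543 and 233 CPM in knockout libraries (1.08 ± 0.44, adjusted p = 0.182). In the list of zona pellucida and secreted factors 1 of 15 was called, 6.67% against 5.14% of all genes. It was Gja1, a gap junction protein better known from cumulus cells, at 3.46 and 3.07 CPM in control and 1 and 0 reads in the knockout. Zp3 held 211 and 184 CPM against 368 and 295 CPM (0.74 ± 0.32, adjusted p = 0.207). Figla, a transcription factor of the growing oocyte, was called lower at 1.00 and 0.264 CPM in control and 0.0894 and 0.0378 CPM in knockout libraries, levels near the floor. Cd9, a tetraspanin of the egg membrane required for sperm fusion, fell from 7.69 and 11.6 CPM to 3.66 and 1.96 CPM (-1.77 ± 0.37, adjusted p = 0.0248), a call kept in 2 of the 8 fits that leave out a library. Of 52 genes of mRNA storage and decay 2 fell, Edc3, of decapping, and Cnot10, of the deadenylase complex, both at or below 1.92 CPM in every library. That is 3.85% of the list.

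Against 5.14% of all genes, 12.5% of the glycolysis and tricarboxylic acid cycle list, 14.7% of the lysosomal and 15% of the antioxidant list were called. Of 40 genes of glycolysis, the tricarboxylic acid cycle and the malate-aspartate shuttle 5 fell, and 3 to 7 with 1 library left out, while DESeq2 called 10 lower. Aldoa, aldolase of glycolysis, held 58.9 and 66.2 CPM in control and 7.45 and 1.66 CPM in knockout libraries (-3.77 ± 0.66, adjusted p = 0.0121). Got1, of the malate-aspartate shuttle, held 51.0 and 50.4 CPM against 8.49 and 5.66 CPM (-2.84 ± 0.36, adjusted p = 0.00306). The isocitrate dehydrogenase genes Idh3b, Idh3g and Idh2 were low in control and uneven between its libraries, with Idh3b at 6.08 and 1.09 CPM. In the antioxidant list, beside Gsto2, Prdx2 and Gstm5, which rose, Gss, Prdx4 and Gstm2 fell from at most 3.31 CPM in control. Among 34 lysosomal genes Ctsl, a cysteine protease, fell from 22.7 and 33.7 CPM to 0.715 and 0.0755 CPM (-6.09 ± 0.86, adjusted p = 0.00535), and Ctsb, Ctsz, Cd63 and Grn also fell. With 1 library left out, 1 to 3 lysosomal genes were called lower, the lowest count arising without control MII library b and without either knockout GV library. Grn, progranulin, held 192 and 183 CPM against 79.4 and 71.8 CPM (-1.31 ± 0.32, adjusted p = 0.0429), and Ctsb 12.3 and 6.87 CPM against 1.34 and 0 CPM. Of 43 chaperone and unfolded protein genes Hspd1, the mitochondrial chaperonin, rose from 61.4 and 54.9 CPM to 116 and 161 CPM, and Xbp1, the transcription factor of the unfolded protein response, was left with 1 read in each knockout library from 5.46 and 5.42 CPM. Calls made up 4.65% of this list.

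Among 61 histone-modifying enzymes 1 rose and 2 fell, 4.92% against 5.14% of all genes. Sirt1, a deacetylase, rose from 4.54 and 6.21 CPM to 25.5 and 39.2 CPM (2.59 ± 0.54, adjusted p = 0.0248), and Prmt5, an arginine methyltransferase, fell from 121 and 125 CPM to 53.5 and 50.9 CPM (-1.24 ± 0.26, adjusted p = 0.0272). Of 46 actin regulators 3 rose and 3 fell, 13.0% of the list. Pfn1, profilin, rose from 4.69 and 3.601 CPM to 47.9 and 18.95 CPM (3.01 ± 0.55, adjusted p = 0.0144), and Cap1, which recycles actin monomers, from 0 and 1 reads to 4.44 and 4.95 CPM (adjusted p = 0.00689). Tpm1 and Tpm2, tropomyosins, and Tmsb4x, a thymosin that binds actin monomers, fell, Tmsb4x from 5.85 and 14.1 CPM to 0.417 and 0 CPM.

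Genes of the extracellular matrix fell in 8 of 28 tested and rose in 1, Pxdn, which is 32.1% of the list (median -2.44) against 5.14% of all genes. With 1 library left out 5 to 7 fell, the lowest count arising without any 1 of control GV libraries 1 and 2 and knockout GV library 1. The 8 were Lamb2, Col18a1, Col4a2, Bmp1, Lox, Mmp14, Timp1 and Serpinh1. Col18a1, a basement membrane collagen, held 3.54 and 11.1 CPM in control and 0 reads in the knockout, at least 72.4-fold lower, and Col4a2, of collagen IV, 8.38 and 5.95 CPM against 0.328 and 0 CPM (-5.34 ± 0.99, adjusted p = 0.0154). Of 12 tested genes of antigen presentation H2-D1, H2-T23 and Psme1 fell, 25% of the list. H2-D1, of class I, held 2.31 CPM in control library a and 20.9 CPM in library b, and 0 reads in the knockout; its call was lost without control MII library b and without knockout MII library 2. Cd74, the invariant chain of class II, was read in 1 library of the 4, control b, at 36.2 CPM, and was not called (adjusted p = 0.105).

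Among markers of other cells, a few immune genes fell, and most tested granulosa and cumulus markers had negative fold changes. The sums of granulosa, endothelial and stroma markers overlapped between the groups, but the granulosa sum was mostly that of 1 gene, Serpine2. Of 12 tested markers of blood and immune cells 3 fell, Cd300c, Ccl3 and Cd52, 25% against 5.14% of all genes. Cd52, a lymphocyte antigen whose gene lies 0.371 Mb from Arid1a, held 4.15 and 10.0 CPM in control and 0 reads in the knockout. Fold changes were negative in 8 of the 12 and positive in 2. Laptm5 held 2.04 and 2.56 CPM in control and 2.79 and 4.99 CPM in knockout libraries (unscaled). Cd68 held 1.92 and 3.90 CPM against 3.72 and 3.43 CPM, and neither was called. Of the 25 listed, 9 had 0 reads in all 4 libraries, among them the defining genes Ptprc, Cd3e, Lyz2, Csf1r and Adgre1. Granulosa and cumulus markers summed to 458 and 551 CPM in control and 512 and 402 CPM in knockout libraries, of which Serpine2 gave 298 and 365 CPM and 389 and 296 CPM. Of 19 tested 13 had negative fold changes (median -1.94) and 1, the estrogen-synthesis gene Hsd17b1, was called, at 3.04 and 2.35 CPM in control and 2 and 0 reads in the knockout. DESeq2 called 5 of the 19 lower. Fshr and Lhcgr, the gonadotropin receptors, had 0 reads in all 4 libraries, while Foxl2, the granulosa transcription factor, had 28 and 10 reads in control and 0 in the knockout, and Inha, inhibin α, 23.4 and 8.57 CPM against 2.76 and 0 CPM. The other 6 of the 19 had positive fold changes and were not called. Nr5a2 held 21.7 and 31.6 CPM in control and 39.6 and 41.1 CPM in knockout libraries (unscaled). Kitl held 0.461 and 1.78 CPM against 7.60 and 2.67 CPM. The called share of this list was 5.26%. Endothelial markers summed to 92.0 and 92.3 CPM against 95.7 and 67.4 CPM with no edgeR call among 8, 4 at an unadjusted p below 0.05 and 1 by DESeq2. Stroma and theca markers gave no call among 4 tested with either tool, nor at an unadjusted p below 0.05. Red blood cell markers stayed at or below 0.423 CPM in sum. The part of such cells in the falls of matrix, antigen presentation and lysosomal genes was not tested.

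Chromosome 4, which carries Arid1a, held more calls in a region around and beyond the deleted gene than elsewhere. In steps of 10 Mb, 4.65% of tested genes were called at 110 to 120 Mb and 5.88% at 120 to 130 Mb. Shares were 11.3% at 130 to 140 Mb, which holds Arid1a, 17.5% at 140 to 150 Mb and 11.4% at 150 to 160 Mb. The highest share thus lay at larger coordinates than Arid1a, where both clusters described below lie. Chromosome 4 as a whole had 7.84% called, against 7.41% of chromosome 17. Within 25 Mb of Arid1a 18 genes were higher and 36 lower of 537 tested, 10.1%, against 4.77% of 419 on the rest of the chromosome and 4.96% of 14615 on other chromosomes. The comparison was described without a test, since the window was chosen after the data were seen. The 5 called genes nearest Arid1a on each side were Eya3, Xkr8, Sytl1, Trnp1 and Gpn2 at smaller coordinates and Cd52, Cep85, Slc30a2, Extl1 and Aunip at larger ones. Gpn2 (133584362 to 133591735) held 274 and 235 CPM in control and 57.7 and 69.7 CPM in knockout libraries, 25.05% of the control mean (adjusted p = 0.0231). Trnp1, a regulator of neural progenitors, held 5.35 and 3.07 CPM against 0.238 and 0.491 CPM (-3.54 ± 0.54, adjusted p = 0.00745). Extl1, a glycosyltransferase of heparan sulfate synthesis, held 9.81 and 15.1 CPM against 0.119 and 0 CPM (adjusted p = 0.00256). Cep85, a centrosomal protein, was the only 1 of the 10 to rise, from 91.5 and 88.9 CPM to 266 and 333 CPM (1.73 ± 0.29, adjusted p = 0.0106). Eya3, a phosphatase, held 150 and 130 CPM against 56.6 and 60.3 CPM (-1.26 ± 0.27, adjusted p = 0.0273), and Aunip 21.6 and 22.9 CPM against 6.82 and 7.40 CPM (-1.64 ± 0.29, adjusted p = 0.012).

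Multicopy genes within the window, singled out after their values were seen, went both ways. Between 143615003 and 144213318 of chromosome 4, where PRAME-like genes lie in a cluster, 2 of 10 tested protein-coding genes were higher (C87977 and Gm13088) and 3 lower (Gm13084, Gm13089 and Gm13103). Gm13103 held 181 and 136 CPM in control and 11.2 and 11.3 CPM in knockout libraries (-3.82 ± 0.31, adjusted p = 0.000327). Gm13100, annotated as an unprocessed pseudogene of the cluster, rose from 2.08 and 3.04 CPM to 51.4 and 66.1 CPM (4.52 ± 0.46, adjusted p = 0.000917). In the region of a zinc finger cluster between 145510759 and 147947314, 6 of 20 tested protein-coding genes were higher and 0 lower (median log2 fold change 2.06), among them Zfp990, Rex2, Zfp933 and Zfp984. Zfp984 held 9.0 and 18.6 CPM against 91.1 and 159 CPM (3.18 ± 0.52, adjusted p = 0.00941), and Rex2 0.192 and 0.330 CPM against 8.70 and 12.5 CPM (5.31 ± 0.83, adjusted p = 0.0082). Of all genes named Zfp, 5 of 20 on chromosome 4 were higher and 0 lower, against 4 higher and 8 lower of 279 on other chromosomes. Both clusters hold multigene families whose members may share reads, how similar they are was not measured here, and single values are uncertain. Outside the clusters, and chosen after their values were seen, Cachd1 (more than 25 Mb from Arid1a), a subunit-like partner of calcium channels, held 23.04 and 21.28 CPM in control and 2 reads in each knockout library, and Dhrs3, a retinaldehyde reductase within 25 Mb, held 5.23 and 4.96 CPM in control and 0 reads in the knockout (at least 50.3-fold lower).

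**Figure D5:**
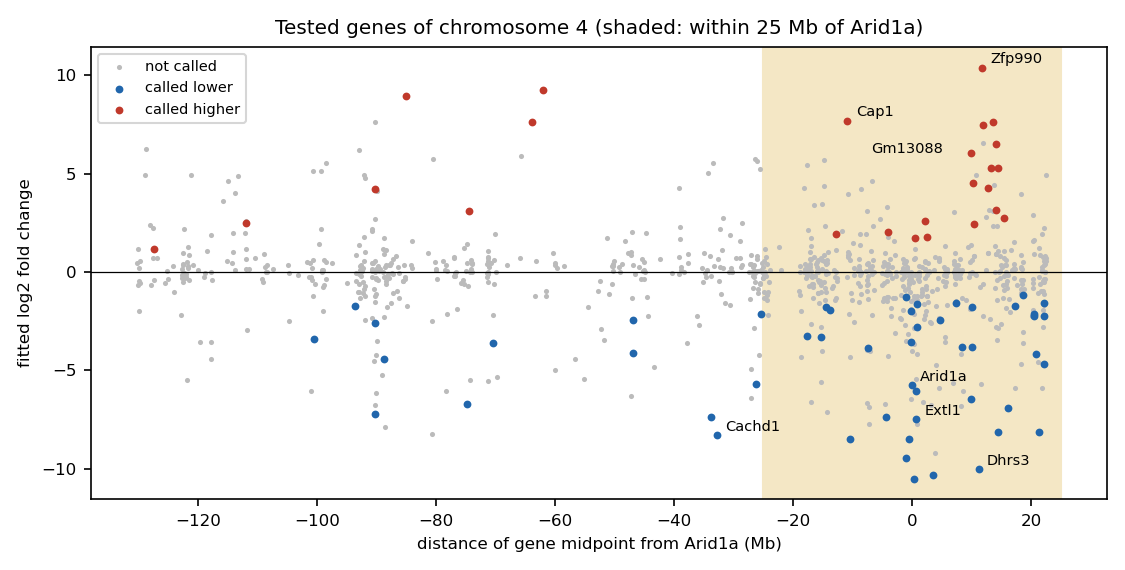
Fitted log2 fold change of each tested gene of chromosome 4 against the distance of its midpoint from Arid1a in Mb, with the 25 Mb on each side shaded. Calls are denser in the shaded part (10.1% of genes) than outside it (4.77%), and red points are genes called higher. The step of 10 Mb with the highest share, 140 to 150 Mb (17.5%), lies to the right of Arid1a.

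The GV libraries, made from other oocytes of the same genotypes, gave 154 calls, 0.989% of the genes tested, and 93 genes were called at both stages. That is 11.6% of the MII calls and 60.4% of the GV calls, and 92 of the 93 had the same direction. Arid1a had GV means of 419 CPM without and 8.88 CPM with the deletion. Mtfr2 was at 60.1 and 358 CPM at GV (2.57, adjusted p = 0.0021), Lrrc17 at 414 and 24.9 CPM (-4.06, adjusted p = 0.00037) and C87414 at 126 and 6.26 CPM (-4.33, adjusted p = 0.00014). Gsto2, Bfsp1, Pxdn, Epcam, Cdc34b, Cachd1, Dhrs3, Extl1, Trnp1 and Aunip were also called at GV in the same direction. By contrast Prdx2, abundant at GV with mean levels of 1811 CPM in control and 2374 CPM in knockout, was not called there (0.39, adjusted p = 0.88), and Spp1 was near the floor at GV in both groups. A difference between the effects at MII and GV was called for 13 genes, 0.0835% of those tested, and 11 of these were MII calls. Passing at 1 stage and not at the other is therefore not shown to be a difference for other genes.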

How the data were processed

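RNA-seq of mouse oocytes was deposited as one table of HTSeq read counts per gene, made by the authors and not normalised; the submitters' processing notes name mm10, Bowtie2, HTSeq and edgeR without versions. The sources used here do not give the annotation release, strand setting or treatment of reads with several matches. Both control MII columns carry one name, so they have no replicate number. All 8 libraries were used, with 0 columns of values unused. The 5 summary rows, 22.0% to 26.1% of counted reads at MII, were left out.

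Genes passing filterByExpr (15572) were fitted over the 8 libraries, 1 term per group, with TMM scaling and edgeR's quasi-likelihood test (edgeR 4.0.16, R 4.3.3), and called at a Benjamini-Hochberg adjusted p below 0.05. The fit had 4 residual degrees of freedom, and SE is the absolute log2 fold change over the square root of F. Single-gene CPM are TMM-scaled over tested genes, and summed CPM are unscaled over all gene reads. A gene with 0 reads in a group has its fold against a floor of 3 reads per library. On simulated counts 7.46%, 74.6% and 100% of genes of at least 5 CPM changed by 1, 2 and 4 on the log2 scale were recovered. Of the simulated calls 4.72% were genes left unchanged. These counts were drawn with the spread estimated by the fit itself, and 200 genes were changed. The 4.72% therefore need not hold for the real calls, many of which are of lower level. Gene positions and biotypes came from GENCODE M21, promoters from RefSeq.

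Genes named are Arid1a, the 12 most abundant and the 12 most changed protein-coding calls in each direction (the latter with at least 5 CPM in both libraries of the higher group), up to 5 calls in each direction and 2 uncalled genes per list by p, and the 5 calls nearest Arid1a on each side; others were chosen after their values were seen, and a few genes under this rule are not reported here. The comparison, the 39 gene lists and the tests were chosen with earlier results of these data known. Alternatives were other scalings and filters, DESeq2 1.42.0, the MII libraries alone, and leaving out each library.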

Additional observations from a re-analysis of the deposited data

Results flagged for a closer look

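For 13 genes the effect of the knockout differed between MII and GV oocytes in a test of the difference itself (edgeR, Benjamini-Hochberg adjusted p from 0.0142 to 0.05, n = 2 libraries per group). The number rests on the processing: 1 gene passed with median-of-ratios scaling, 2 with library totals, 366 with DESeq2, and 0 to 20 when 1 library was left out. Differences are given on the log2 scale as the effect at MII minus that at GV.

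The ribosomal protein genes Rpl3 (-5.01) and Rps4x (-3.30) and the aminotransferase Got1 (-3.67) fell at MII and were not called at GV. Rps4x held 26.7 and 27.6 CPM in control and 2.89 and 2.91 CPM in knockout MII libraries, against GV means of 752 and 793 CPM. Mbl2, a mannose-binding lectin, stood at 40.5 and 76.1 CPM in control and 2.14 and 1.66 CPM in knockout MII libraries, and at 345 and 132 CPM at GV (-3.54). Mfap1b, a gene of spliceosome assembly, stood at 171 and 164 CPM in control and 4.32 and 8.0 CPM in knockout MII libraries, and at 98.7 and 39.8 CPM at GV (-3.46). Rbm28, a nucleolar RNA-binding protein, fell from 97.5 and 94.7 CPM to 8.58 and 5.13 CPM at MII, and held 57.6 and 39.5 CPM at GV (-3.26).

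Vps39, a tether of endosome and lysosome fusion, had a positive difference (3.13), at 32.8 and 34.0 CPM in control and 240 and 150 CPM in knockout MII libraries, and 121 and 80.3 CPM at GV. Odr4 (-11.47), Tep1 (-8.77) and Ptgr1 (-7.46) had 0 or 1 reads in each knockout MII library, so the size of their differences depends on the fit. The processed pseudogenes Gm12463 (-4.07) and Gm8730 (-3.73) were called at GV and not at MII. At GV they rose from 2.37 to 88.6 CPM and from 6.06 to 216 CPM. How reads with several matches were counted is not given, so the levels of both are uncertain.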

How the results depend on the processing

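Against 265 higher and 535 lower genes, 599 and 1230 were called without a filter (25203 genes tested), and 682 and 1211 with DESeq2. Median-of-ratios scaling (275 and 518), library totals (211 and 485), a filter at 5 CPM (194 and 394) and the 4 MII libraries alone (357 and 429) stayed within 1.5 times, the last with 45.4% of calls higher against 33.1% and with 465 of the 800 calls kept. Leaving out 1 library gave 123 to 258 higher and 242 to 505 lower genes, lowest without knockout GV library 1, and 11 to 35 ribosomal protein genes lower; 360 to 471 of the 800 calls were kept. The 13 genes that differed between stages became 1 with median-of-ratios scaling, 2 with library totals, 498 without a filter, 41 at 5 CPM, 366 with DESeq2 and 0 to 20 with a library left out. The causes were not tested. Over all settings, values of named genes kept direction and side of the threshold 2278 times, lost the call 410 times, gained it 156 times and reversed once, for Ncaph2 (-0.52), which ranged from -0.95 without control MII library b to 0.23 without library a. The median of all genes moved to -0.11 without knockout MII library 1. No paired analysis was possible because both control MII columns carry the same name and no usable replicate number. With 2 libraries a group, changes of 1 on the log2 scale were mostly below detection in simulated counts, which changed genes of at least 5 CPM.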

Other observations

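Beside protein-coding genes, 832 long intergenic noncoding RNAs were tested, of which 12 rose and 19 fell at MII in the knockout (3.73%), and 382 antisense transcripts, of which 7 were higher and 5 lower (3.14%). Protein-coding genes were called in 5.42% of 12981 tested, with 207 higher and 496 lower.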
